A study of Mus musculus with 8 samples.

Results

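Splicing factor and hnRNP genes were taken as the rows of the expression table whose symbol starts with Srsf, Sfrs, Hnrnp, Snrp or Sf3 followed by a letter or digit. The rule found 50 of the 23235 genes listed. They were 12 SR protein genes (counting Sfrs18, whose current symbol is Pnisr), 18 hnRNP genes, 12 genes of Sm and snRNP proteins and 8 genes of SF3 subunits. For testing, genes needed an FPKM (fragments scaled by transcript length and library size) of at least 1 in at least 2 libraries, which 13688 genes met. Among them were 49 of the 50 members. The remaining member, Srsf12, was listed between 0.175 and 0.795 FPKM in the 8 libraries and was not tested. Genes named Snrnp, such as Snrnp70, fall outside the rule and are counted with other splicing lists.

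The 8 libraries came from the ovaries of mice: granulosa cells, which line the follicle and feed its oocyte, of female C57BL/6 animals. The 4 groups, with 2 libraries each, were CNOT6/6L KO cells 44 h after PMSG, untreated CNOT6/6L KO cells (0 h), WT cells 44 h after PMSG and untreated WT cells (0 h). PMSG is a gonadotropin with FSH-like activity that drives follicle growth. CNOT6 and CNOT6L are deadenylase subunits of the CCR4-NOT complex, which shortens the poly(A) tails of mRNA, and the labels call the KO cells a double knockout (DKO). The labels did not give the PMSG dose, the age of the animals, the alleles or any Cre driver. Whether replicates are separate animals was not stated either, and the spread behind every p-value may therefore be technical.

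Splicing removes introns from pre-mRNA on the spliceosome. Rings of Sm proteins form the core of the U1, U2, U4 and U5 snRNPs, and the SF3a and SF3b complexes hold the U2 snRNP at the intron branch point. SR proteins bind exonic enhancers through RNA recognition motifs and recruit the spliceosome through their arginine- and serine-rich tails, whereas many hnRNP proteins coat nascent RNA and silence exons. Several SR and hnRNP genes are known to limit their own protein output by splicing in a poison exon, which sends the mRNA to nonsense-mediated decay. In granulosa cells FSH acts through its receptor, cAMP and protein kinase A, and CREB is a textbook nuclear target of that kinase.

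FPKM summed to between 675557 and 753216 per library, and relative depth read from the steps between low values was 0.9025 to 1.255. Cnot6 was 26.7 and 17.4 FPKM (KO 44 h), 11.8 and 12.01 FPKM (KO 0 h), 26.1 and 26.9 FPKM (WT 44 h) and 29.1 and 18.4 FPKM (WT 0 h). Cnot6l was 2.01 and 1.61 FPKM (KO 44 h), 4.69 and 1.97 FPKM (KO 0 h), 4.202 and 2.63 FPKM (WT 44 h) and 6.11 and 7.07 FPKM (WT 0 h). The library labelled KO replicate 1 at 44 h thus held Cnot6 within the WT range. KO replicate 2 at 44 h lay just below the lowest WT library for Cnot6, and the library labelled KO replicate 1 at 0 h held Cnot6l above both WT libraries at 44 h. KO is the label of these libraries, and the directions given for KO rest on it. The 2 KO replicates at 44 h also stood far apart, with 1527 genes at least 2-fold apart, against 432 (KO 0 h), 382 (WT 44 h) and 317 (WT 0 h) between the replicates of the other groups. This gap does not show which of the 2 libraries is unusual. Replicate 2 had the highest relative depth (1.255), and its surface epithelium and oviduct markers summed to 707 FPKM, against 121 in replicate 1. The splits into higher and lower that use KO at 44 h, over all members and where given by family, are also given without KO replicate 1, and not without replicate 2. Granulosa markers summed to between 9859 and 25594 FPKM per library. Oocyte markers summed to 1392 to 2349 FPKM (KO 44 h), 4438 to 5193 FPKM (KO 0 h), 966 to 998 FPKM (WT 44 h) and 1805 to 3086 FPKM (WT 0 h), and no marker of any list was at 0 in every library.

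Together the genes held 1.03% to 1.18% of the summed FPKM of a library. Hnrnpk, whose protein binds C-rich RNA, had the highest mean over the 8 libraries (888 FPKM). Next came the Sm ring genes Snrpg (835 FPKM), Snrpe (543 FPKM), Snrpd2 (492 FPKM) and Snrpb (337 FPKM). Hnrnpa2b1, which encodes an exon-silencing hnRNP, averaged 279.9 FPKM. Srsf7, which encodes an SR protein with a zinc knuckle, led the SR genes with a mean of 249.7 FPKM, and Sf3b5, a small SF3b subunit gene, led the SF3 genes with 210.5 FPKM. At the low end of the tested members were Hnrnpul2 (2.42 FPKM), Hnrnpd (4.57 FPKM) and Hnrnpa0 (5.90 FPKM).

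The steadiest member was Sf3b1, the gene of the branch-point-contacting subunit of SF3b. It was 71.4 and 73.0 FPKM (KO 44 h), 70.1 and 80.1 FPKM (KO 0 h), 75.1 and 77.1 FPKM (WT 44 h) and 80.5 and 81.0 FPKM (WT 0 h), so that its highest library was 1.16-fold above its lowest. Hnrnpf (1.21-fold), Sf3b2 (1.21-fold) and Hnrnpr (1.23-fold) followed. Most variable among the tested members were Sf3a2 (2.66-fold), Srsf5 (2.31-fold) and Hnrnpa0 (2.05-fold). The replicates of 1 group could differ as much as the groups: Sf3a2, an SF3a subunit gene, was 24.3 and 9.59 FPKM in the 2 KO libraries at 44 h and 15.4 and 9.16 FPKM in the 2 WT libraries at 44 h.

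**Figure D1:**
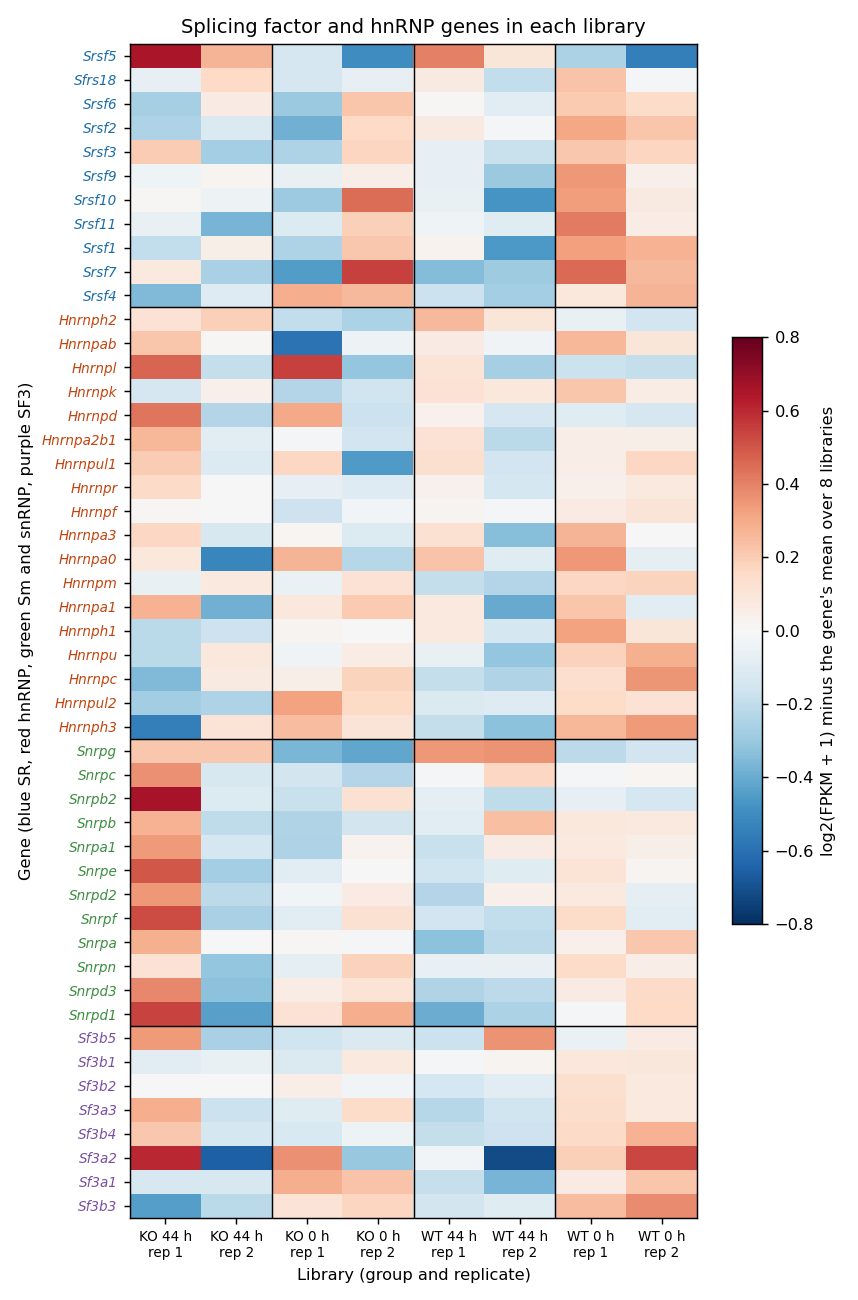
Level of each of the 49 tested genes (rows, by family) in each of the 8 libraries (columns), as log2(FPKM + 1) minus the gene's mean over all libraries. Srsf5 and Snrpg are high in the 4 libraries at 44 h, and the Sm and snRNP genes are high in KO replicate 1 at 44 h, where 12 of 12 lie above replicate 2.

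None of the 49 genes passed the test in any of the 5 comparisons (limma on log2(FPKM + 1), Benjamini-Hochberg adjusted p under 0.05). Few genes of any kind passed: 0.139% of all genes tested for 44 h against 0 h in KO, 0.0804% for 44 h against 0 h in WT, 0.0365% for KO against WT at 0 h, 0.0219% for KO against WT at 44 h and 0.0438% for the difference between the KO and WT responses to PMSG. At an unadjusted p under 0.05 there were 7, 11, 1, 1 and 1 members in these comparisons, in that order. The same threshold took 21.1%, 24.1%, 9.69%, 9.79% and 1.82% of all genes tested, so the members' share was near or below that of all genes. What follows therefore gives levels, differences and whether the libraries of 2 groups overlap, as a description. RNA of whole samples was measured, so fewer cells of a type and less RNA per cell cannot be told apart.

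The question behind the PMSG comparison was how granulosa cells respond to gonadotropin with and without CNOT6/6L. Of the 49 genes, Srsf5, Snrpg and Hnrnph2 were higher in both 44 h libraries than in both 0 h libraries in each genotype, a pattern found in 9.18% of all genes tested.

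Srsf5 encodes an SR protein that promotes exon inclusion. Its level was 296 and 227 FPKM in KO at 44 h, against 171 and 133 FPKM in KO at 0 h. In WT it was 249 and 201.5 FPKM at 44 h, against 158 and 128 FPKM at 0 h. Every 44 h library lay above every 0 h library of either genotype. On the log2(FPKM + 1) scale the difference was 0.78 in KO (SE 0.22, limma adjusted p = 0.131) and 0.65 in WT (SE 0.22, adjusted p = 0.145). Srsf5 differed between genotypes by 0.21 at 44 h and 0.083 at 0 h, each less than its SE of 0.22.

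Snrpg encodes SmG, a member of the Sm ring. It was 951 and 949 FPKM in KO at 44 h, against 635 and 613 FPKM in KO at 0 h. WT cells had 1042 and 1049 FPKM at 44 h, against 708 and 736 FPKM at 0 h. Its replicates lay close together, and the groups did not overlap. The difference between 44 h and 0 h was 0.61 in KO (SE 0.15, limma adjusted p = 0.113) and 0.53 in WT (SE 0.15, adjusted p = 0.113). Without KO replicate 1 at 44 h, Snrpg passed the test in WT (limma adjusted p = 0.0423, log2 difference 0.53), in a fit that called 9.74% of all genes. It also passed without KO replicate 2 at 44 h (adjusted p = 0.0423), where 9.72% were called. Snrpg was lower in KO than in WT at each time, by a log2 difference of -0.14 at 44 h and -0.21 at 0 h (limma adjusted p = 0.755 and 0.736), without overlap of libraries. After quantile normalization the genotypes overlapped at both times.

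Hnrnph2, an X-linked gene for an hnRNP that binds G-rich RNA, was 60.2 and 63.5 FPKM in KO at 44 h, against 48.4 and 46.4 in KO at 0 h. In WT it was 66.7 and 59.4 FPKM at 44 h, against 53.3 and 49.9 at 0 h. The differences were 0.38 in KO and 0.28 in WT (SE 0.14 each, limma adjusted p = 0.184 and 0.258). Its close relative Hnrnph1 went the other way, at 72.6 and 75.2 FPKM in KO at 44 h, against 85.7 and 84.8 in KO at 0 h.

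The promoters of the 3 genes that were higher at 44 h in both genotypes are shown because PMSG signals through cAMP, and CREB binds the cAMP response element TGACGTCA and its shorter core TGACG. Each window runs from 250 bases before to 50 after the annotated start and is taken from RefSeq (GRCm38.p6, given 5′ to 3′ on the gene's strand, with every TGACG on either strand in capitals). Srsf5 lies at chr12:80945249-80945548 (plus strand), Snrpg at chr6:86371290-86371589 (plus strand) and Hnrnph2 at chrX:134600929-134601228 (plus strand).
Srsf5: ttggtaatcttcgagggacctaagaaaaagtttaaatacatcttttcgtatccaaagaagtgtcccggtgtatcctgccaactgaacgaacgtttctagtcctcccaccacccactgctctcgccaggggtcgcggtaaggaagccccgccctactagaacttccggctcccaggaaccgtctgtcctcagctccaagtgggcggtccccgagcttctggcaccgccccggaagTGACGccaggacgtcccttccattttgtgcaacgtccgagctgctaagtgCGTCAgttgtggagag
Snrpg: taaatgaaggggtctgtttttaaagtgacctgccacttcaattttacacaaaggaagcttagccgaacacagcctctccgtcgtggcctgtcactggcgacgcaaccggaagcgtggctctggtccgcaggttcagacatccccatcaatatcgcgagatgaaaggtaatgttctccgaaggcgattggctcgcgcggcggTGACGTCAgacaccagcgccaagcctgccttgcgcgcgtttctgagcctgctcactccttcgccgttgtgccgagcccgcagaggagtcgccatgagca
Hnrnph2: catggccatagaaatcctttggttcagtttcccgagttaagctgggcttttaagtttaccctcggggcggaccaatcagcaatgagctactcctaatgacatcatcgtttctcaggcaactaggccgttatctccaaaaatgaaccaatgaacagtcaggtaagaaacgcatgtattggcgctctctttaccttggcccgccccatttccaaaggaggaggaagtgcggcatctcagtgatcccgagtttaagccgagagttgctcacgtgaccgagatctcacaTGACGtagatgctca

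The Srsf5 window held 2 copies of TGACG, the Snrpg window held the full TGACGTCA, which contains the core on both strands, and the Hnrnph2 window held 1 core. Promoters were found for 43 of the member genes, 60 windows in all. TGACGTCA was in 2 of these 60 windows (3.33%, those of Snrpg and Snrpa) and in 1.79% of the 32851 promoter windows of all genes, searched on both strands. Snrpa was lower at 44 h in WT without overlap (-0.40) and differed by 0.15 in KO with overlap. The core TGACG was in 46.7% of the members' windows and 20.8% of all windows. It was also in promoters of members that were not higher at 44 h, as 23 of the 43 genes had it. Other short motifs were counted the same way. GGGCGG, the GC box, was in 66.7% of members' windows and 35.7% of all, and CCGGAAG, the ETS site, in 33.3% and 8.86%. CCAAT was in 46.7% and 37.4%, and TATAAA, the TATA box, in 11.7% and 13.6%. A match is a description of these letters and was not tested for binding.

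In the opposite direction, 5 genes were lower in both 44 h libraries than in both 0 h libraries in each genotype: Srsf4, Hnrnph1, Hnrnpul2, Sf3a1 and Sf3b3. This pattern was found in 25.4% of all genes tested. Srsf4, a large SR protein gene, was 18.4 and 22.04 FPKM in KO at 44 h, against 29.2 and 28.6 in KO at 0 h. WT cells held 21.0 and 19.5 FPKM at 44 h, against 25.3 and 28.9 at 0 h. The log2 difference was -0.50 in KO and -0.40 in WT (SE 0.16 each, limma adjusted p = 0.156 and 0.189). The SR genes Srsf4 and Srsf5 thus lay on opposite sides of 0 in each genotype.

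Sf3b3 encodes the beta-propeller scaffold of SF3b. Its level was 45.3 and 53.1 FPKM in KO at 44 h, against 66.8 and 70.0 in KO at 0 h. The WT level was 55.7 and 57.9 FPKM at 44 h, against 73.5 and 80.6 at 0 h. The log2 difference was -0.47 in KO and -0.43 in WT (SE 0.14 each, limma adjusted p = 0.146 and 0.144). Sf3a1, the gene of the large SF3a subunit, was 15.9 and 15.9 FPKM in KO at 44 h, against 21.6 and 20.7 in KO at 0 h. In WT it was 15.3 and 13.3 FPKM at 44 h, against 18.4 and 20.5 at 0 h. Hnrnpul2 was the lowest tested member, at 1.79 and 1.85 FPKM in KO at 44 h, against 3.23 and 2.78 in KO at 0 h, a level at which the log2(FPKM + 1) scale understates a difference. After median-of-ratios scaling or quantile normalization Hnrnph1 overlapped in WT, and after quantile normalization so did Hnrnpul2. The other 3 stayed apart.

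**Figure D2:**
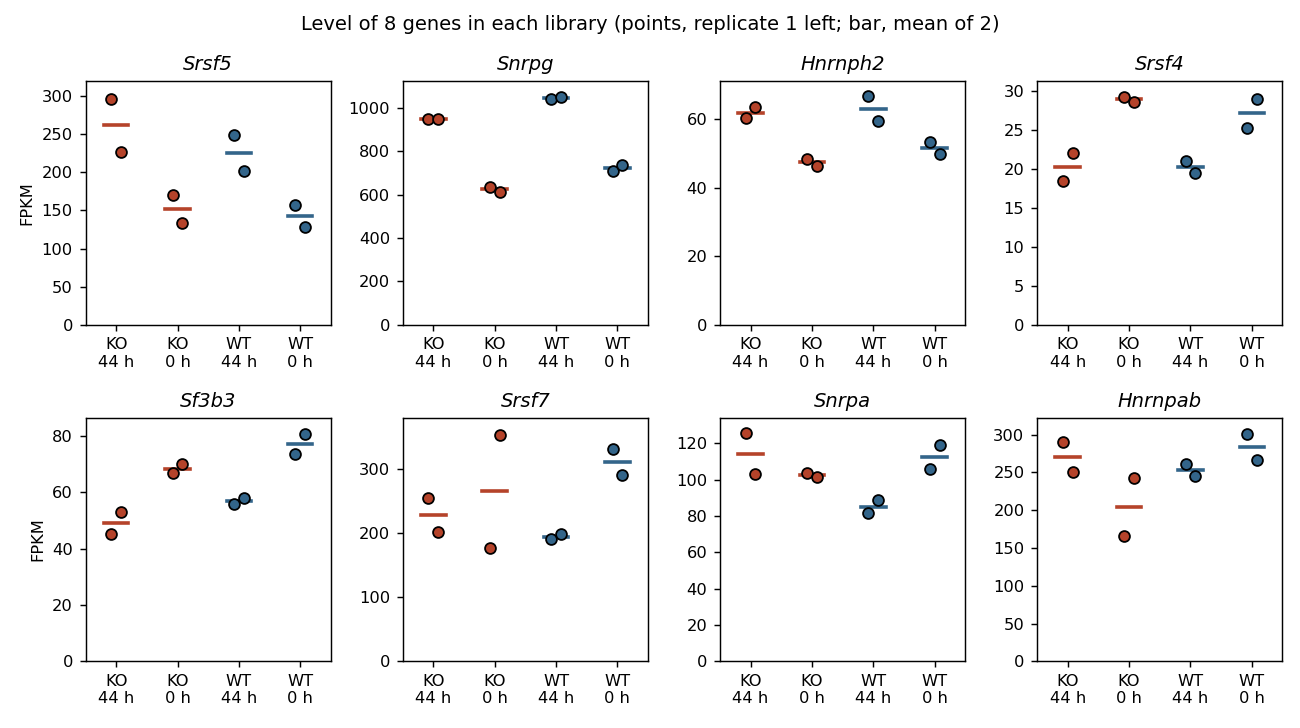
FPKM of 8 genes in each library (points, replicate 1 on the left; bars, mean of 2 libraries; axes start at 0) in KO at 44 h, KO at 0 h, WT at 44 h and WT at 0 h. Srsf5, Snrpg and Hnrnph2 are higher and Srsf4 and Sf3b3 lower at 44 h in both genotypes, whereas Snrpa and Hnrnpab differ in how the genotypes compare. For Srsf7 the 2 KO libraries at 0 h lie on both sides of the WT libraries at 0 h.

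Over all 49 genes, WT cells at 44 h had 7 members higher and 42 lower than at 0 h, with a median log2 difference of -0.22, where 38.0% of all genes tested were higher and 61.9% lower, and the median of all genes was -0.13. The libraries of the groups did not overlap for 31 lower members (40.6% of all genes) and 3 higher ones (22.5%). After median-of-ratios scaling these counts were 20 lower (31.8%) and 8 higher (29.5%), and after quantile normalization 5 were higher (26.4%). KO cells at 44 h had 25 members higher and 24 lower, with a median of 0.0032, where 39.3% of all genes were higher and 60.6% lower, and their median was -0.11. Here 5 members were lower without overlap (34.1% of all genes) and 9 were higher (14.3%), or 15 higher after median-of-ratios scaling (20.7%). After quantile normalization 7 were higher, 14.29% of the members against 20% of all genes, so an excess of higher members depended on the scaling. Without KO replicate 1 at 44 h the KO split was 16 higher and 33 lower, with a median of -0.069. Then 21 members were lower (47.7% of all genes) and 10 higher (32.6%) without overlap, with 1 library at 44 h.

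Scaling by the median of ratios moved the median of all genes to -0.020 in WT and -0.0064 in KO, a shift of about the size of the original medians. It gave 18 higher and 31 lower members in WT, and 36 higher and 13 lower in KO. Relative to the median of all genes, the members' median in WT was -0.093 as deposited, -0.071 after this scaling and -0.18 after quantile normalization. In KO the same quantity was 0.11, 0.13 and 0.019. The members therefore sat below the median gene in WT and above it in KO under all 3 scalings, by an amount that depended on the scaling. In KO it also rested on libraries: without KO replicate 1 at 44 h the quantity was 0.032, and without KO replicate 1 at 0 h it was 0.089.

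In WT, 10 of 11 SR genes were lower at 44 h, with a median of -0.32. Of them 9 were without overlap (40.6% of all genes tested). In KO, 8 of 11 were lower, with a median of -0.061, and 1 of them, Srsf4, without overlap (34.1% of all genes). After median-of-ratios scaling 10 of 11 SR genes were lower in WT (median -0.19), 7 of them without overlap (31.8% of all genes). After quantile normalization 9 were lower without overlap in WT (36.5% of all genes). In KO, median-of-ratios scaling gave 8 higher and 3 lower (median 0.058). In KO, 5 were higher and 6 lower without KO replicate 1 at 44 h (median -0.0038), and 9 of 11 were lower without KO replicate 1 at 0 h (median -0.32), so the KO values of this family depended on scaling and on libraries. Srsf7 was 190.3 and 198.5 FPKM in WT at 44 h, against 331 and 290.3 in WT at 0 h, a log2 difference of -0.67 (SE 0.31, limma adjusted p = 0.240). It passed the test when only the WT libraries were fitted (adjusted p = 0.0470), a fit that called 6.90% of all genes. In KO, Srsf7 was 255.5 and 202 FPKM at 44 h, against 177 and 353 at 0 h. The lowest and the highest of all 8 libraries for this gene were thus the 2 KO replicates at 0 h, and the log2 difference in KO was -0.14.

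Srsf1, Srsf2 and Srsf3, genes of the classical shuttling and non-shuttling SR proteins, followed the same order in WT. Srsf1 was 48.0 and 34.0 FPKM in WT at 44 h, against 59.2 and 57.3 at 0 h (log2 difference -0.52, SE 0.23, limma adjusted p = 0.223). Srsf2 was 197 and 186 FPKM in WT at 44 h, against 233 and 219.5 at 0 h, a difference of -0.24. Srsf3 was 115 and 106 FPKM in WT at 44 h, against 140.2 and 136 at 0 h, a difference of -0.32. In KO the differences of these genes were -0.058, -0.070 and 0.0032, each within its SE, and their libraries overlapped between times. KO replicate 1 at 0 h was low in SR genes, 9 of 11 of which lay below replicate 2 with a median of -0.42, while the median over all genes tested was 0.063. Srsf10, for example, was 68.2 FPKM in that library and 114 in its replicate. Its immune marker sum was 901 FPKM against 162 in its replicate, and the part of this in the SR values was not tested.

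Among the hnRNP genes, values lay on both sides of 0 in each genotype. In WT, 15 of 18 were lower at 44 h with a median of -0.14, close to the median of all genes (-0.13). In KO, 10 of 18 were higher with a median of 0.025, and without KO replicate 1 at 44 h, 8 were higher and 10 lower (median -0.020). Median-of-ratios scaling gave 12 higher and 6 lower in KO, and 9 higher and 9 lower in WT. Relative to all genes the WT median was -0.012 as deposited, 0.0051 after median-of-ratios scaling and -0.15 after quantile normalization, so its side of 0 depended on the scaling. Hnrnpm was 94.5 and 91.7 FPKM in WT at 44 h, against 121 and 122.5 in WT at 0 h (log2 difference -0.39, SE 0.14, limma adjusted p = 0.158). Hnrnph3 was 26.6 and 24.2 FPKM in WT at 44 h, against 37.0 and 39.0 at 0 h (-0.56, SE 0.22, adjusted p = 0.187), and Hnrnpu, which encodes the scaffold attachment factor A, and Hnrnpc, which encodes a poly-U binding hnRNP, differed by -0.42 and -0.46. In KO Hnrnpm differed by -0.022.

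The abundant Hnrnpk and Hnrnpa2b1 differed between times by less than their SE in each genotype. Hnrnpk was 807 and 910.1 FPKM in KO at 44 h, against 752 and 792 in KO at 0 h (0.15), and it was 959.5 and 937 in WT at 44 h, against 1030 and 919.9 in WT at 0 h (-0.038). Hnrnpa2b1 was 335 and 262 FPKM in KO at 44 h, against 275 and 250.1 in KO at 0 h (0.17), and it was 301.5 and 239.6 in WT at 44 h, against 288.5 and 287 in WT at 0 h (-0.099). Hnrnpa1, whose protein antagonises SRSF1 on shared exons, differed by -0.20 in KO and -0.23 in WT, each less than its SE of 0.27. Hnrnpab, a CArG-box binding hnRNP gene, was 290.3 and 251 FPKM in KO at 44 h, against 165 and 242 in KO at 0 h, a log2 difference of 0.43 (SE 0.21, limma adjusted p = 0.290).

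Among the Sm and snRNP genes, Snrpg, described above, and Snrpc were higher at 44 h in both genotypes. Snrpc differed by 0.074 in WT and 0.31 in KO (SE 0.19 each), without overlap in KO only. After quantile normalization Snrpc was lower in WT (-0.064). In WT, 10 of the 12 genes of this family were lower at 44 h with a median of -0.14. In KO, 9 of 12 were higher with a median of 0.15. Median-of-ratios scaling gave 10 higher and 2 lower in KO, and 6 higher and 6 lower in WT (median -0.0078). Relative to all genes the WT median was -0.0085 as deposited, 0.012 after median-of-ratios scaling and -0.13 after quantile normalization. The KO median rested on 1 library, and without KO replicate 1 at 44 h, 3 were higher and 9 lower (median -0.15). In KO replicate 1 at 44 h all 12 genes lay above replicate 2, with a median gap of 0.53, while the median gap over all genes tested was -0.012. The 8 genes of the Sm ring had a median gap of 0.63. The median coding transcript of the family is 1204.5 nt long, against 2062 nt for all genes. All genes with coding transcripts of 1000 to 2000 nt had a median gap of 0.028, and those under 1000 nt one of 0.051. The part of length in the gap was not tested.

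Snrpd1, which encodes SmD1, was 327 and 166 FPKM in the 2 KO libraries at 44 h, against 243 and 275 in KO at 0 h. Snrpe, which encodes SmE, was 757 and 444.5 FPKM in KO at 44 h, against 504 and 535 at 0 h. Snrpf and Snrpb2 showed the same gap, at 256 and 149 and at 234 and 137 FPKM in KO at 44 h. For Snrpd1, Snrpe and Snrpf the KO libraries at 0 h lay between the 2 KO libraries at 44 h. Measured from the KO 0 h mean, the family's median was 0.46 in KO replicate 1 at 44 h alone. Snrpn, the imprinted relative of Snrpb that shares most of its coding sequence, stayed low, at 42.8 and 31.6 FPKM in KO at 44 h, against 37.2 and 44.9 in KO at 0 h, while Snrpb was 405 and 290.6 in KO at 44 h, against 282 and 301.5 in KO at 0 h. Reads of such close copies, and of processed copies of genes such as Snrpg, Snrpe, Hnrnpa1 and Srsf3, may have been shared between entries, so these levels are uncertain.

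Among the SF3 genes in WT, 7 of 8 were lower at 44 h, with a median of -0.35. All 7 were lower without overlap, as were 40.6% of all genes tested. After median-of-ratios scaling 6 of 8 were lower in WT, 5 of them without overlap (31.8% of all genes). After quantile normalization 8 of 8 were lower in WT, 7 of them without overlap (36.5% of all genes). In KO, 5 of 8 were lower, with a median of -0.035. Of these, 2 (Sf3a1 and Sf3b3) were without overlap (34.1% of all genes). After median-of-ratios scaling, 6 were higher and 2 lower in KO (median 0.084), and after quantile normalization 4 were higher and 4 lower. In KO, 8 of 8 were lower without KO replicate 1 at 44 h (median -0.16), so here too the KO split depended on both. Relative to all genes the WT median was -0.22 as deposited, -0.20 after median-of-ratios scaling and -0.24 after quantile normalization. Sf3b4 was 86.7 and 88.3 FPKM in WT at 44 h, against 110.3 and 120.4 in WT at 0 h, a difference of -0.39. Sf3b5 alone was higher in WT, by 0.086 with an SE of 0.25, and its WT libraries at 44 h were 184 and 267 FPKM.

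Markers of several cell types differed between times as well. Those of cycling cells were lower at 44 h, as most members were in WT. Their sum was 623 to 703 FPKM in WT at 44 h, against 862 to 993 in WT at 0 h, and 10 of 10 were lower at 44 h. In KO it was 767 to 931 FPKM at 44 h, against 932 to 1009 at 0 h, and 7 of 10 were lower. Oocyte markers were lower at 44 h for 14 of 14 genes in each genotype. Theca and stroma markers summed to 239.9 to 406 FPKM in KO at 44 h, against 90.4 to 126 at 0 h (7 of 9 higher). Their WT sum was 423 to 473 FPKM at 44 h, against 107 to 111 at 0 h (8 of 9 higher). Surface epithelium and oviduct markers were higher at 44 h for 9 of 9 genes in each genotype, endothelial markers for 4 of 6 in KO and 5 of 6 in WT, and immune markers for 5 of 9 in KO and 8 of 9 in WT. Granulosa markers were higher for 7 of 10 in each. The part of these lists in the values of the splicing genes was not tested.

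**Figure D3:**
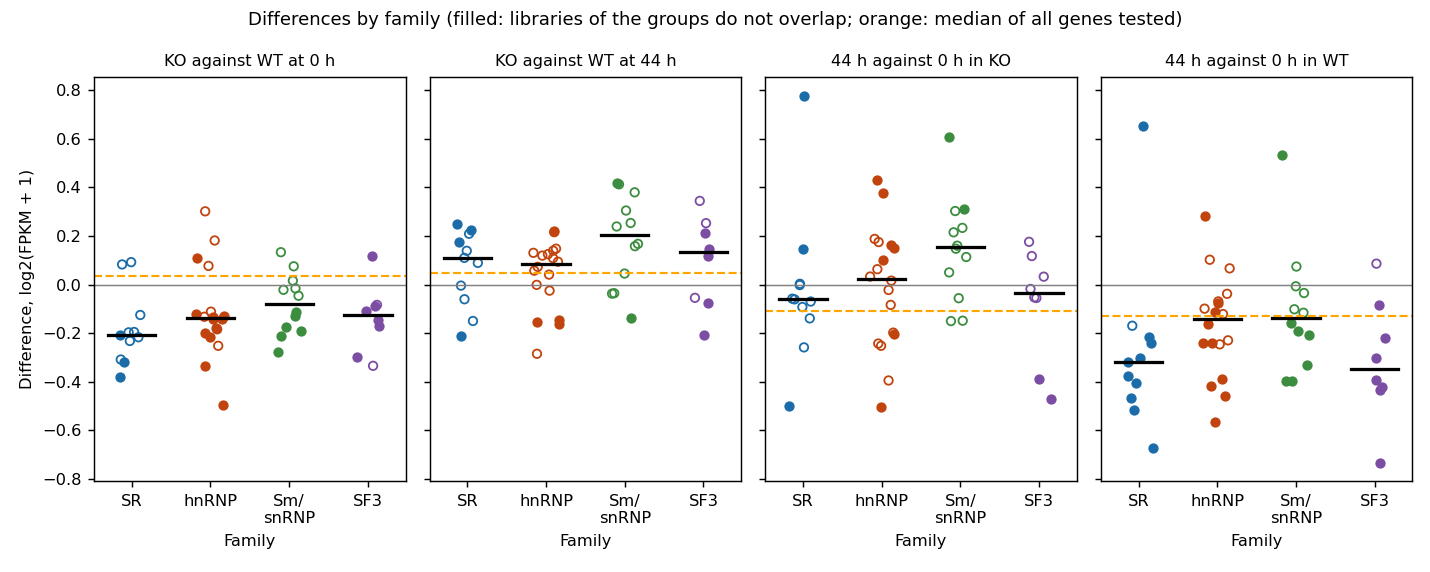
Difference of each gene, in log2(FPKM + 1), by family in 4 comparisons (1 point per gene; filled where the libraries of the 2 groups do not overlap; black bar, family median; orange line, median of all genes tested). Most SR and SF3 points lie below the orange line for 44 h against 0 h in WT and not in KO, and for KO against WT at 0 h 39 of 49 points lie below 0.

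The comparison of genotypes asks what loss of CNOT6/6L does to these mRNAs before and after PMSG. At 0 h, 10 members were higher and 39 lower in KO than in WT, with a median log2 difference of -0.14, where 54.6% of all genes were higher and 45.3% lower, and the median of all genes was 0.034. The libraries did not overlap for 24 lower members (19.1% of all genes) and 2 higher ones (27.3%), or 1 higher after median-of-ratios scaling (26.2%) and after quantile normalization (21.3%). All 4 families had more members lower than higher: 9 of 11 SR, 14 of 18 hnRNP, 9 of 12 Sm and snRNP and 7 of 8 SF3 genes. Relative to the median of all genes the members' median was -0.18 as deposited, -0.18 after median-of-ratios scaling and -0.11 after quantile normalization. Without KO replicate 1 at 0 h, the split was 14 higher and 35 lower with a median of -0.10. Then 7 of 11 SR, 16 of 18 hnRNP, 6 of 12 Sm and snRNP and 6 of 8 SF3 genes were lower, and 30 members were lower (34.9% of all genes) and 9 higher (38.6%) without overlap.

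At 0 h the difference with the smallest p was that of Hnrnpab, at 165 and 242 FPKM in KO, against 300.1 and 266 in WT (log2 difference -0.50, SE 0.21, limma adjusted p = 0.513, unadjusted p = 0.0483). Hnrnpk was 752 and 792 FPKM in KO, against 1030 and 919.9 in WT (-0.33, SE 0.16, adjusted p = 0.575). Srsf2, which encodes an SR protein that stays in the nucleus, was 144 and 209.5 FPKM in KO, against 233 and 219.5 in WT (-0.38, SE 0.20, adjusted p = 0.606). Srsf1 (39.4 and 54.8 FPKM in KO, against 59.2 and 57.3 in WT), Sf3b4 (91.0 and 96.2 in KO, against 110.3 and 120.4 in WT) and Snrpb (282 and 301.5 in KO, against 354 and 353 in WT) had the same order without overlap. In Hnrnpab, Srsf2 and Srsf1 it was again KO replicate 1 that was lowest.

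The few members that were higher in KO at 0 h differed by little. Sf3a1 was 21.6 and 20.7 FPKM in KO, against 18.4 and 20.5 in WT, a log2 difference of 0.12 (SE 0.16). Hnrnpl, whose protein binds CA-rich RNA, had the highest difference (0.30, SE 0.33), but its KO libraries were 36.0 and 19.4 FPKM, on both sides of the WT values of 21.5 and 21.1. Oocyte markers were higher in KO for 14 of 14 genes at each time. Immune markers were higher in KO for 9 of 9 genes at 0 h, where their sums were 162 to 901 FPKM in KO, against 211 to 235 in WT, and for 8 of 9 at 44 h (409.5 to 451 FPKM in KO, against 232 to 321 in WT). Endothelial markers were higher in KO for 5 of 6 genes at 0 h and lower for 5 of 6 at 44 h, and surface epithelium and oviduct markers were lower for 7 of 9 at 44 h. The part of these lists in the differences was not tested.

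At 44 h, 33 members were higher and 16 lower in KO than in WT, with a median of 0.12, where 55.5% of all genes were higher and 44.5% lower, and their median was 0.046. Without overlap there were 8 higher members (23.9% of all genes) and 7 lower ones (15.1%), neither share above that of all genes as deposited. After quantile normalization 11 were higher (22.45% of members, 19.4% of all genes) and 3 lower (19.7% of all genes). After median-of-ratios scaling 6 were higher (22.15% of all genes) and 9 lower (18.37% of members, 17.01% of all genes). Whether a share lay above that of all genes thus depended on the scaling. Without KO replicate 1, the split turned to 20 higher and 29 lower with a median of -0.059, and 15 were higher (41.9% of all genes) and 19 lower (28.4%) without overlap. Without KO replicate 2 the median was 0.20. The direction of the members at 44 h thus rested on KO replicate 1. Cycling-cell markers were higher in KO at 44 h for 10 of 10 genes (767 to 931 FPKM in KO, against 623 to 703 in WT), and their part was not tested.

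Snrpa, which encodes protein A of the U1 snRNP, had the smallest p at 44 h. It was 125.5 and 103 FPKM in KO, against 81.4 and 88.6 in WT, a log2 difference of 0.42 (SE 0.16, limma adjusted p = 0.497, unadjusted p = 0.0312). At 0 h its order was the opposite, with 104 and 102 FPKM in KO, against 106 and 119 in WT. Hnrnpm was 103 and 114 FPKM in KO at 44 h, against 94.5 and 91.7 in WT (0.22, SE 0.14, adjusted p = 0.600). Srsf9, the gene of a small SR protein, was 29.6 and 30.8 FPKM in KO at 44 h, against 29.0 and 24.5 in WT (0.18, SE 0.17). Snrpd1 differed by 0.38 (SE 0.30, limma adjusted p = 0.670). It passed the test without KO replicate 2 at 44 h (0.87, adjusted p = 0.0387), where the group is the 1 library that stood apart, its spread is assumed from the other groups and 5.85% of all genes were called.

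Lower in KO at 44 h without overlap were Srsf2, Hnrnph1, Hnrnpk, Hnrnpul2, Snrpg, Sf3b1 and Sf3b3. Srsf2 was 158 and 173 FPKM in KO, against 197 and 186 in WT (-0.21, SE 0.20). Sf3b3 was 45.3 and 53.1 FPKM in KO, against 55.7 and 57.9 in WT (-0.21, SE 0.14, limma adjusted p = 0.641). Sf3b1 differed by -0.075 (SE 0.135). After quantile normalization the libraries of Srsf2, Hnrnph1, Hnrnpk and Snrpg overlapped.

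**Figure D4:**
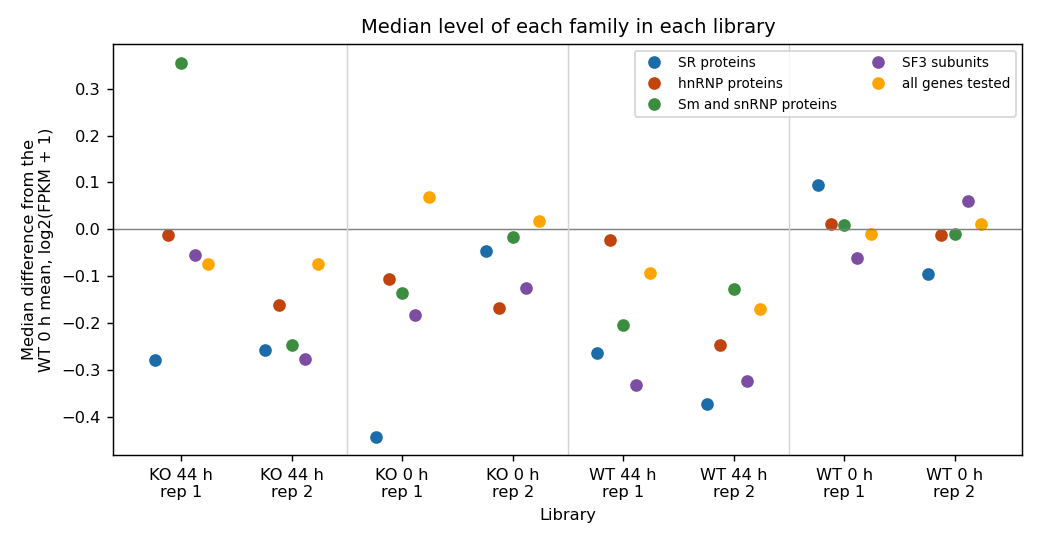
Median over the genes of each family of the difference from the WT 0 h mean, in log2(FPKM + 1), in each of the 8 libraries; orange points are the median of all genes tested. The Sm and snRNP genes lie at 0.36 in KO replicate 1 at 44 h and at -0.25 in replicate 2, and the SR genes at -0.44 in KO replicate 1 at 0 h and at -0.045 in replicate 2.

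The difference between the KO and WT responses to PMSG, KO minus WT, was above 0 for 43 of 49 members, where 49.2% of all genes were above 0 and 50.8% below. The median was 0.24, against -0.0058 for all genes. By family it was above 0 for 10 of 11 SR genes (median 0.32), 14 of 18 hnRNP genes (0.18), 12 of 12 Sm and snRNP genes (0.26) and 7 of 8 SF3 genes (0.15). Scaling hardly mattered here, since relative to all genes the members' median was 0.24 as deposited and after median-of-ratios scaling, and 0.23 after quantile normalization. It depended on libraries: without KO replicate 1 at 44 h, 33 members were above 0 and 16 below with a median of 0.082, and without KO replicate 1 at 0 h the split was 40 and 9 with a median of 0.19. By family, without KO replicate 1 at 44 h it was above 0 for 9 SR, 13 hnRNP, 4 Sm and snRNP and 7 SF3 genes, and the Sm and snRNP median turned to -0.039. Without KO replicate 1 at 0 h it was above 0 for 7 SR, 16 hnRNP, 11 Sm and snRNP and 6 SF3 genes, and the SR median was 0.035. All members share the same 8 libraries, so the count is no measure of how firm the direction is.

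Single genes showed it as follows. For Snrpa the response was 0.15 in KO and -0.40 in WT, a difference of 0.55 (SE 0.22, limma adjusted p = 0.9999, unadjusted p = 0.0416). Sf3b4 had a response of 0.12 in KO and -0.39 in WT, a difference of 0.51 (SE 0.23), and Hnrnpab one of 0.43 in KO and -0.16 in WT, a difference of 0.59 (SE 0.29). Below 0 the members with the smallest p were Hnrnpul2 (-0.26, SE 0.26), Hnrnpa0 (-0.17, SE 0.43) and Srsf4 (-0.097, SE 0.23). For Snrpg the responses of 0.61 in KO and 0.53 in WT differed by 0.073, and for Srsf5 those of 0.78 and 0.65 differed by 0.13.

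Genes that act with the members were counted from other lists of splicing genes, and none of their genes passed the test in any comparison. Medians are of values as deposited, to be read against the median of all genes of -0.11 in KO and -0.13 in WT. Among 18 SR-like factors and SR protein kinases, 13 were lower at 44 h in KO (median -0.19) and 16 in WT (median -0.40). Srpk1, the kinase that phosphorylates SR proteins in the cytoplasm, was 40.2 and 38.4 FPKM in KO at 44 h, against 67.9 and 68.0 in KO at 0 h. WT cells held 34.1 and 31.5 FPKM at 44 h, against 53.8 and 70.2 at 0 h. Its log2 difference was -0.78 in KO (SE 0.17, limma adjusted p = 0.101) and -0.89 in WT (SE 0.17, adjusted p = 0.0838). Tra2a, an SR-like splicing activator gene, was 15.6 and 11.9 FPKM in WT at 44 h, against 36.3 and 29.9 in WT at 0 h (-1.22, SE 0.24, adjusted p = 0.0847). In KO Tra2a was also lower, at 14.9 and 15.9 FPKM at 44 h, against 21.9 and 32.8 at 0 h. Ppp1r8, of the same list, went the other way, at 26.8 and 23.8 FPKM in KO at 44 h, against 15.6 and 17.5 at 0 h (0.58, SE 0.15, limma adjusted p = 0.122). In WT Ppp1r8 was 24.45 and 24.48 FPKM at 44 h, against 17.8 and 16.6 at 0 h. Clk1 and Clk4, genes of nuclear SR protein kinases, were lower in KO than in WT at 0 h, by -0.44 and -0.41 (limma adjusted p = 0.412 and 0.498). Clk1 was 90.7 and 100.4 FPKM in KO at 0 h, against 125 and 134.5 in WT at 0 h.

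Next to the Sm rings stand the factors that assemble them and the other snRNP proteins. Of 16 genes of the SMN complex and snRNP assembly, 13 were lower in KO (median -0.22) and 14 in WT (median -0.27). Snupn, the import adaptor of mature snRNPs, was 37.9 and 31.3 FPKM in KO at 44 h, against 47.3 and 50.2 in KO at 0 h. In WT it was 26.3 and 28.2 FPKM at 44 h, against 43.7 and 42.7 at 0 h (-0.49 in KO and -0.65 in WT, limma adjusted p = 0.148 and 0.104). Of 22 tri-snRNP and B complex genes, 15 were lower in KO (median -0.12) and 22 in WT (median -0.19), among them Prpf3 in WT at -0.75 (SE 0.17, adjusted p = 0.102). In KO Prpf3 was also lower, at 15.15 and 15.99 FPKM at 44 h, against 18.24 and 22.84 at 0 h. Of 20 other U1 and U2 factors, 11 were lower in KO (median -0.058) and 18 in WT (-0.22), with Luc7l, a U1-associated factor gene, at -0.73 in WT (adjusted p = 0.111). Luc7l was also lower in KO, at 45.7 and 45.18 FPKM at 44 h, against 48.03 and 67 at 0 h. Among 12 Lsm genes, only some of whose proteins form the ring on U6, 7 were lower in KO (-0.050) and 8 in WT (-0.21).

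Later steps were covered by catalytic and surveillance factors. Of 26 Prp19 complex and catalytic step genes, 20 were lower at 44 h in KO (median -0.13) and 25 in WT (-0.25). Crnkl1 was 27.9 and 22.6 FPKM in WT at 44 h, against 41.5 and 46.5 in WT at 0 h (-0.78, limma adjusted p = 0.102). In KO Crnkl1 was also lower, at 43.95 and 34.83 FPKM at 44 h, against 58.43 and 58.91 at 0 h. Of 13 exon junction complex and nonsense-mediated decay genes, 9 were lower in KO (-0.14) and 11 in WT (-0.26), with Upf2 at -0.44 in KO and -0.89 in WT (adjusted p = 0.315 and 0.110). Of 9 minor spliceosome genes, 5 were lower in KO (-0.086) and 6 in WT (-0.16). Pdcd7 stood out there, at 8.91 and 7.53 FPKM in KO at 44 h, against 21.97 and 18.5 in KO at 0 h (-1.20, SE 0.20, limma adjusted p = 0.0813). In WT it was also lower, at 6.73 and 5.58 FPKM at 44 h, against 10.77 and 13.18 at 0 h (-0.86, limma adjusted p = 0.104). Snrnp25 was higher instead, at 92.6 and 74.4 FPKM in KO at 44 h, against 52.95 and 54.9 in KO at 0 h (0.61, limma adjusted p = 0.150). In WT Snrnp25 was 64.96 and 89.4 FPKM at 44 h, against 56.7 and 57.7 at 0 h. Of 47 other RNA-binding splicing regulators, 28 were lower in KO (-0.081) and 34 in WT (-0.23), and the epithelial regulator gene Esrp1 differed by -1.07 in KO and -1.21 in WT (adjusted p = 0.139 and 0.110). The smallest p of this list in KO was that of Mbnl3, which was higher at 44 h, at 3.475 and 3.876 FPKM against 1.444 and 1.658 at 0 h (0.87, limma adjusted p = 0.113). In WT Mbnl3 was 3.35 and 2.481 FPKM at 44 h, against 3.175 and 2.7 at 0 h.

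In transcript structure the families differed. In GENCODE M21, 10 of 11 tested SR genes carry a transcript marked for nonsense-mediated decay (90.9%), against 28.1% of all matched genes, 44.4% of hnRNP genes, 33.3% of Sm and snRNP genes and 12.5% of SF3 genes. Retained-intron transcripts were annotated for 71.4% of the members and 57.5% of all genes. FPKM were deposited per gene, so neither kind of transcript was measured. For 12 members a protein-coding gene overlaps the gene, among them Hnrnpab with Phykpl, Snrpa with BC024978, Sf3b3 with Cog4 and Srsf2 with Mfsd11. The strand used in counting is not given in the sources used here, so reads of such pairs cannot be told apart and those levels are uncertain.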

How the data were processed

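RNA was measured in 8 libraries of mouse granulosa cells (4 groups of 2). The authors deposited 1 table of FPKM values and 1 column for each library, per the file headers. Per the submitters' processing notes, the mm9 build, Cufflinks 2.2.1 and TopHat2 2.1.1 were used, in an order and for steps not stated there. Annotation and strand setting were not given in the sources used here, and 2 kits, TruSeq and TruePrep, are named per the labels. The number of fragments behind each value is unknown, so no counting interval is given and the relative depth is only read from steps between low values.

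Since FPKM are no counts, limma 3.58.1 (R 4.3.3, moderated with a trend, two-sided) was run on log2(FPKM + 1) with a mean per group and 4 residual degrees of freedom. Genes reaching 1 FPKM in at least 2 libraries were tested. Benjamini-Hochberg adjustment of the p-values ran over the 13688 genes for each of the 5 comparisons, with a threshold of 0.05 for a call. Groups are said not to overlap where every library of one lies above every library of the other. Log2 differences, and the counts of genes 2-fold apart between replicates, are on the log2(FPKM + 1) scale, which understates differences of low genes. Folds of the highest over the lowest library are ratios of FPKM. SE is that of the fit. The fit was tested on simulated data.

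The members and lists were chosen with earlier results of these data known. Named members were, per family and comparison, the 2 with the smallest p in each direction with a mean FPKM of at least 5 in either group, the 3 with the smallest p in each direction for the difference between responses, the most abundant of each family, and Srsf1, Srsf2, Srsf3, Hnrnpa1, Hnrnpa2b1, Hnrnpk, Sf3b1, Snrpb and Snrpn. Not every member so selected is described in each comparison, and Snrpd3, Srsf11, Sf3a3 and Sfrs18 are given no values. Up to 2 genes per comparison stand for each other list, and not every gene so selected is named. Members named beyond this were chosen after their values were seen. Alternatives covered the pseudocount (0.1), the filter (none, or an FPKM of at least 5), 2 scalings, a replicate block, fits of only the groups compared, a robust moderation and the omission of each library. The splits, overlaps and family medians without KO replicate 1 at 44 h or at 0 h were added after seeing the data. Promoter windows and overlaps are from RefSeq GRCm38.p6 and transcript types from GENCODE M21, matched by symbol, and no gene coordinates of these builds are set beside the values.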

Additional observations from a re-analysis of the deposited data

Results flagged for a closer look

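In 8 genes every library of a group moved one way in one setting and the opposite way in the other. How many of all genes tested have this pattern was not counted. The number is therefore not read as a trait of the members. Each such difference was tested with limma as the difference between the KO and WT responses to PMSG, and none passed (adjusted p = 0.9999 for each).

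For 3 genes the KO and WT responses to PMSG were opposite, with no overlap between times in either genotype. Hnrnpab was 290.3 and 251 FPKM in KO at 44 h, against 165 and 242 FPKM in KO at 0 h. In WT it was 261 and 244.5 FPKM at 44 h, against 300.1 and 266 FPKM at 0 h, giving a difference of 0.59 between the responses (SE 0.29, limma unadjusted p = 0.0847). Hnrnpr (0.27) and Hnrnpf (0.18) had smaller ones. After median-of-ratios scaling the WT libraries of Hnrnpab and Hnrnpr overlapped and Hnrnpf was higher at 44 h in both genotypes, and after quantile normalization the WT libraries of Hnrnpr and the KO libraries of Hnrnpf overlapped.

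For 5 genes the genotypes were in opposite order at 44 h and at 0 h. The same quantity was 0.55 for Snrpa (limma unadjusted p = 0.0416), 0.51 for Sf3b4 (unadjusted p = 0.0592), 0.36 for Hnrnpm, 0.20 for Sf3b2 and -0.26 for Hnrnpul2. Sf3b2, an SF3b subunit gene, was 99.5 and 99.3 FPKM in KO at 44 h, against 90.04 and 93.2 FPKM in WT at 44 h. At 0 h it was 103 and 97.9 FPKM in KO, against 109 and 105 FPKM in WT. After median-of-ratios scaling the libraries of Sf3b4 overlapped at 44 h and those of Hnrnpul2 at 0 h, and after quantile normalization Hnrnpul2 was lower in KO at 0 h too, with overlap. Such patterns rest on 2 libraries per group.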

How the results depend on the processing

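With 2 libraries per group, precision is limited by their spread. The pooled SD of the library medians of the members was 0.12 (log2). No member was called as analysed, and alternatives called 1 member in 4 cases. In WT, 44 h against 0 h, Srsf7 was called with only the WT groups fitted (1 member) and Snrpg without either KO library at 44 h, so leaving out each library in turn gave 0 to 1 members. KO against WT at 44 h gave 0 to 1, with Snrpd1 called without KO replicate 2. Leaving out a library called 0 in the other 3 comparisons. Of 1757 alternatives for named genes, 1754 kept their side of the threshold and 3 gained a call.

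Leaving out each library moved the median log2 difference of the members between -0.16 and -0.10 for KO against WT at 0 h and between -0.059 and 0.20 for KO against WT at 44 h. It ranged from -0.28 to -0.13 for 44 h against 0 h in WT, from -0.069 to 0.21 for 44 h against 0 h in KO and from 0.082 to 0.34 for the difference between the responses. The lowest value was without KO replicate 1 at 44 h in 3 of these. Without that library, 20 members were higher and 29 lower for KO against WT at 44 h, against 33 and 16 with it, so the direction turned. For 44 h against 0 h in KO, 16 were higher and 33 lower without it, and 26 higher and 23 lower without KO replicate 1 at 0 h. For the difference between the responses 33 were above 0 and 16 below without KO replicate 1 at 44 h, and 40 and 9 without KO replicate 1 at 0 h. Median-of-ratios scaling moved the median to -0.091 for 44 h against 0 h in WT and to 0.12 in KO. The cause of these moves was not tested, beyond the libraries and scaling that made them.

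No pairing by replicate number was seen: deviations of same-numbered libraries from their group means correlated between -0.11 and -0.0068 over genes. With 2 libraries per group this cannot exclude a pairing. With the replicate block, 0 members were called in each comparison and the medians were those of the fit without it.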
